A study of Mus musculus with 8 samples.

Results

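The genes described here encode the tracks and motors of the microtubule cytoskeleton: kinesins, cytoplasmic dynein and tubulins. They were chosen by name, as probe sets whose annotation gave a single symbol starting with Kif, Dync, Dynl, Tuba, Tubb or Tubg, without Tubb3. The rule found 58 probe sets of 44 genes among the 12488 on the array, where single symbols name 8251 genes. It left out 2 probe sets of Tubb3 and 4 with several symbols. Of the 58, 45 probe sets of 38 genes were bright enough to be tested, which meant a signal of at least 50 on at least 2 of the 8 arrays.

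RNA came from neurosphere cells, which are neural stem and progenitor cells grown as floating clusters, cultured from single forebrains of mouse embryos at embryonic day 14.5. All embryos carried a bcl2 transgene (Bcl2 blocks apoptosis), so every group, controls included, shared it, and the promoter that drives it is not given in the sources used here. Dissociated cells grew for 2 days untreated, with AzaC (5-aza-2'-deoxycytidine) at 500 nM, with TSA (trichostatin A) at 150 nM, or with both drugs at these doses (AzaC/TSA). AzaC blocks DNA methyltransferases and TSA blocks histone deacetylases. A group was measured on 2 arrays, 1 per experiment, and all values in pairs below are given in the order of experiments 1 and 2.

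Microtubules are polymers of alpha and beta tubulin that grow from rings of gamma tubulin. Kinesins walk along them or shorten their ends. One set of kinesins builds the mitotic spindle, moves chromosomes and completes the division of the cell, and its transcripts are known to accumulate late in the cell cycle. Another set carries vesicles, mitochondria and other cargo toward microtubule ends in resting cells, neurons above all, while dynein carries cargo the other way. By these textbook roles the members fell into 8 probe sets of mitotic kinesins, 18 of transport kinesins, 3 of other kinesins (Kif2a and Kif9), 3 of dynein heavy and intermediate chains, 7 of dynein light chains, 6 of alpha tubulins, 8 of beta tubulins and 5 of gamma tubulin and its ring complex.

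Promoters of 5 mitotic kinesins are shown first, because the genes of this class moved together. The sequences are those of RefSeq for GRCm38.p6, from 120 bases before to 30 after the start of a transcript, 5' to 3' on the strand of the gene. Capitals mark CCAAT and TTTGAA on either strand, so that a match on the opposite strand reads ATTGG or TTCAAA. These are the letters of the CCAAT box and of the cell cycle gene homology region, elements known from many genes of G2 and mitosis. The 5 mitotic kinesins shown are those whose promoters held both motifs. The promoter of Kif2c, with TTTGAA and no CCAAT, is not printed, and none was available for Kif20a. Kif11 lay at chr19:37376262-37376411 (+), Kif22 at chr7:127042391-127042540 (-), Kif23 at chr9:61946770-61946919 (-), Kif4 at chrX:100625945-100626094 (+) and Kifc1 at chr17:33890604-33890753 (-). The transport kinesins Kif1c, at chr11:70700428-70700577 (+), and Kif3c, at chr12:3365012-3365161 (+), are set beside them. Their stretches hold neither motif, so 2 more transport kinesins that hold 1 of them were added after the matches were seen: Kif3a, at chr11:53567249-53567398 (+), and Kif1a, at chr1:93082451-93082600 (-). Kifap3, brighter than Kif3c, held CCAAT 178 bases before the start and is not printed.
Kif11: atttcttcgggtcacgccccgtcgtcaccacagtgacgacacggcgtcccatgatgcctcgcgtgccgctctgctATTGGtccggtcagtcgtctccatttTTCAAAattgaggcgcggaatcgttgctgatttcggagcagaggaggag
Kif22: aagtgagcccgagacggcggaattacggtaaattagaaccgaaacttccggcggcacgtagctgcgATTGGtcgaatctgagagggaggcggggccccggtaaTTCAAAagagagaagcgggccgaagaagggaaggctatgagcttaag
Kif23: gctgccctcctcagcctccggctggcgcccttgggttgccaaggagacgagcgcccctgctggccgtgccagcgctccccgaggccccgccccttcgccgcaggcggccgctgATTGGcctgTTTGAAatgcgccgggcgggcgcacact
Kif4: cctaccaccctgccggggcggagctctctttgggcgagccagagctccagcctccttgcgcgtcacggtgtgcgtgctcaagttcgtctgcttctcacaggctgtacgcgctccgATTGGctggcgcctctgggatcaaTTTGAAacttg
Kifc1: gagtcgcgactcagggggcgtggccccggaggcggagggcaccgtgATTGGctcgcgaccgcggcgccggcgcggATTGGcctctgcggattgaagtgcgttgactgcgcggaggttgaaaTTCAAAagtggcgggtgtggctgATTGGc
Kif1c: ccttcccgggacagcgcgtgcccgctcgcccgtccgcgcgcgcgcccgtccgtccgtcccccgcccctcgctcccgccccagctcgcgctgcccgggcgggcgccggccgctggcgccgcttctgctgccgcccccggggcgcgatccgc
Kif3c: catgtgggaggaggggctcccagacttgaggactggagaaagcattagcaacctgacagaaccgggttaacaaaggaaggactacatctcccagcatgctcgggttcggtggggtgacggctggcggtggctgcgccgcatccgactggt
Kif3a: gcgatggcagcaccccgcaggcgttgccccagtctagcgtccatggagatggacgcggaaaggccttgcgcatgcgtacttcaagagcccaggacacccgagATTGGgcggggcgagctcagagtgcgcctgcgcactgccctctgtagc
Kif1a: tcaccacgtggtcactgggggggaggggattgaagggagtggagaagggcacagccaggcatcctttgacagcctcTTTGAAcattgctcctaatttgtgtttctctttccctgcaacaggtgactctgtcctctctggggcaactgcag

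The table held a 300-base window, from 250 bases before to 50 after the start, for 34 of the 44 genes, 40 windows in all. TTTGAA stood in 6 of 6 windows of mitotic kinesins (all 7 genes but Kif20a), against 17.9% of all 32851 windows in the table. CCAAT stood in 5 of the 6 (37.4% of all), and the window without it was that of Kif2c. Windows with CCAAT together with TTTGAA or its variant TTCGAA were 5 of 6, against 7.52% of all, and TTCGAA itself was in 0 of the 6 (1.56% of all). Of 11 windows of 9 transport kinesins 1 held TTTGAA (Kif1a), 5 held CCAAT (among them overlapping windows of Kif1b) and 0 held both. Among beta tubulins 1 of 4 windows held both, that of Tubb4b, which did not pass with TSA. Tubb5, which fell with TSA, held CCAAT and no TTTGAA. The letters GGGCGG, a GC box, were in 3 of 6 windows of mitotic kinesins, 8 of 11 of transport kinesins and 35.7% of all. In Kif11 the CCAAT match began 45 bases and the TTTGAA match 19 bases before the start, and in Kif22 the nearest pair began at 54 and 17 bases before it. In Kif23, Kif4 and Kifc1 the TTTGAA match began 3, 20 and 2 bases into the transcript. In Kif2c, whose window starts at a transcript inside the gene, a single TTTGAA began 103 bases before the start. The Kif1a window with TTTGAA likewise belongs to a transcript that starts inside its gene. The other Kif1a window, nearer the 5' end of the gene, held neither TTTGAA nor CCAAT. The windows of Kif3a and Kifap3, which held CCAAT, also belong to transcripts that start inside their genes. A match describes letters only and shows no binding.

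The deposited values are intensities that were scaled to the same trimmed mean on each array. Median signals of the arrays lay between 59.3 and 72.8, with 53.1% to 58.3% of probe sets at or above the filter. Of 8 marker genes of neural progenitors 7 were tested: Nes, Sox2 and Fabp7 had mean signals of 2202, 3389.5 and 6341 and Notch1 of 152 and 718 on its sets, while Pax6 (88.5), Msi1 (34.0) and Prom1 (26.7 and 69.7) were dim and Vim was untested. Of the markers of macrophages 2 of 5 genes were tested (Cd68, mean 179, and Csf1r, 57.2), of endothelial cells 1 of 4 (Pecam1, 49.5) and of fibroblasts 3 of 5 (Col1a1, Col1a2 and Dcn). Of these Cd68 rose with TSA (2.69, limma adjusted p = 0.0315). The others did not pass, and Csf1r changed by -0.49 with TSA. For actin the 5' control signal over the 3' one, a sign of RNA integrity, was 0.332 to 0.471 on the arrays without TSA and 0.29 to 0.39 on those with it, and these ranges overlapped. For Gapdh the same ratio was 0.867 to 1.04 without TSA and 0.738 to 0.982 with it. The median standard error (SE) of a log2 change between groups was 0.41 over all tested probe sets, with a 95% half-width of 0.93. The labels tie no array to an animal, so p-values measure the spread between these arrays.

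Transcripts of mitotic kinesins fell steeply wherever TSA was present, with or without AzaC. All 8 probe sets, for 7 genes, passed the test against untreated cells with TSA and again with AzaC/TSA. The median log2 change was -3.04 with TSA and -3.64 with AzaC/TSA, against 0.02 and -0.00 over all 7994 tested probe sets. Transport kinesins did not follow: 0 of 11 tested probe sets passed in either comparison, and their medians were 0.02 and 0.46. Most of these 11 sets were too dim in untreated cells to show a fall as deep, because of the floor described below. All tests are limma fits over the 8 arrays, two-sided, with Benjamini-Hochberg adjustment over the 7994 probe sets and a threshold of 0.05. In this fit 2.1% of all tested probe sets rose and 2.93% fell with TSA. Among all members, 1 rose and 12 fell of 45.

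Kif11, the motor that pushes spindle poles apart (gene at chr19:37376382-37421863), had signals of 321 and 404 in untreated cells, 378 and 283 with AzaC, 5.5 and 5.7 with TSA, and 2.1 and 2.8 with AzaC/TSA. All 4 arrays with TSA lay under 20, the floor to which lower values were raised before taking log2. The fall with TSA was at least 18-fold (log2 change -4.17, SE 0.37, n = 2 arrays per group, limma adjusted p = 0.00117). Here and below, "at least" marks a change whose lower group had an array under the floor.

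Kif20a, which brings the chromosomal passenger complex to the spindle midzone, had 2 probe sets. The first read 288 and 531 untreated, 310.3 and 439 with AzaC, 2.4 and 9 with TSA, and 7.2 and 18.5 with AzaC/TSA. The second read 585 and 1021 untreated, 806 and 929 with AzaC, 28.9 and 35.1 with TSA, and 18.6 and 27.5 with AzaC/TSA. On both, each array with TSA was lower than each array without it. The falls with TSA were at least 19.5-fold (-4.29, SE 0.42, limma adjusted p = 0.00168) and 24.3-fold (-4.60, SE 0.37, adjusted p = 0.000837).

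Kif23, a motor of the central spindle that is needed to complete division (chr9:61917277-61946810), fell least in the class. Its signals were 291 and 601 untreated, 401 and 305 with AzaC, 58.8 and 143 with TSA, and 64.9 and 93.2 with AzaC/TSA. Arrays with and without TSA did not overlap, but the arrays of a group differed widely, both untreated and with TSA. The change with TSA was 4.57-fold lower (-2.19, SE 0.50, limma adjusted p = 0.0423).

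The chromosome arm motors Kif22 (chr7:127027729-127042467) and Kif4 (chrX:100626065-100727271) carry chromosomes or hold them on the spindle. Kif22 read 1107 and 1437 untreated, 1015 and 1814 with AzaC, 131 and 153 with TSA, and 65.5 and 144 with AzaC/TSA. Its fall with TSA was 8.91-fold (-3.15, SE 0.42, limma adjusted p = 0.00624). Kif4 read 170.2 and 228 untreated, 149 and 169.8 with AzaC, 21.1 and 31.7 with TSA, and 18 and 18.3 with AzaC/TSA, a fall of 7.61-fold with TSA (-2.93, SE 0.42, adjusted p = 0.0088). For both genes the arrays with TSA formed a separate, lower set.

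Kif2c, which shortens microtubules at centromeres (chr4:117159633-117182624), read 247 and 304 untreated, 291 and 354 with AzaC, 40.8 and 76.1 with TSA, and 23.7 and 22.4 with AzaC/TSA. It fell 4.92-fold with TSA (-2.30, SE 0.40, limma adjusted p = 0.0175) and 11.9-fold with AzaC/TSA (-3.57, adjusted p = 0.00363). Kifc1, which bundles spindle microtubules toward their minus ends (chr17:33875664-33890633), read 142 and 159 untreated, 154 and 261 with AzaC, 13 and 24.7 with TSA, and 18.1 and 17.2 with AzaC/TSA. The fall of Kifc1 with TSA was at least 6.75-fold (-2.76, SE 0.44, adjusted p = 0.0126).

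**Figure D1:**
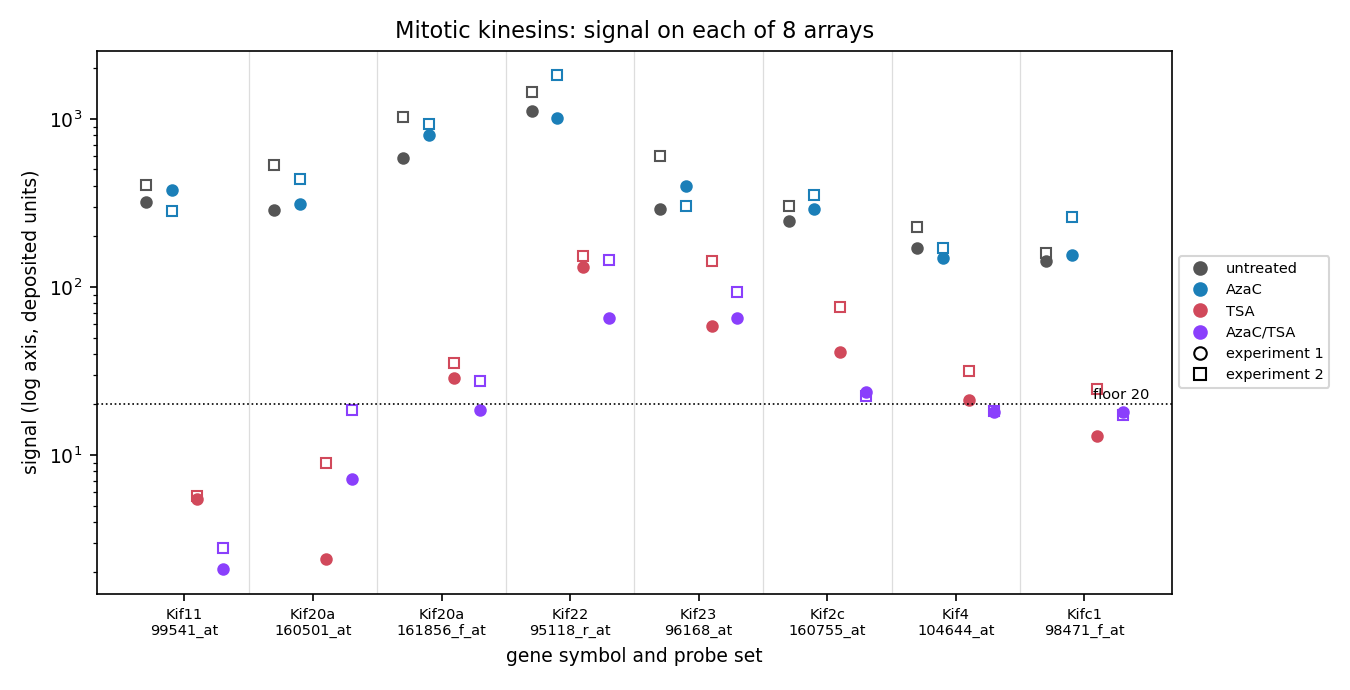
Signal of each mitotic kinesin probe set on each of the 8 arrays (log axis, deposited units), coloured by group, with circles for experiment 1 and squares for experiment 2; the dotted line is the floor of 20. For all 8 probe sets the 4 arrays with TSA lie below the 4 without, and Kif11 drops from 283 or more to 5.7 or less.

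With AzaC/TSA against untreated cells, 0 of 45 members rose and 9 fell, where 1.29% of all tested probe sets rose and 1.83% fell. The fall was at least 18-fold for Kif11 (-4.17, SE 0.37, limma adjusted p = 0.00146), the same bound as with TSA because both groups lay under the floor. Kif20a fell at least 19.5-fold and at least 32.9-fold on its 2 probe sets (-4.29 and -5.04), Kif22 13.0-fold (-3.70), Kif4 at least 9.84-fold (-3.30), Kifc1 at least 7.5-fold (-2.91) and Kif23 5.38-fold (-2.43, SE 0.50, adjusted p = 0.0392). The ninth member was 1 of the 2 probe sets of Tubb5.

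TSA was also tested on top of AzaC, in a comparison that shares no array with TSA against untreated. Here 0 of 45 members rose and 9 fell, against 1.11% and 1.68% of all tested probe sets, and 7 of the 9 were mitotic kinesins. The log2 changes were -4.03 for Kif11 (at least), -4.21 and -5.21 for Kif20a (both at least), -3.81 for Kif22, -3.80 for Kif2c, -3.33 for Kifc1 (at least) and -2.99 for Kif4 (at least), with limma adjusted p from 0.000617 to 0.00913. Kif23 had a change of -2.17 (SE 0.50) and an adjusted p = 0.0603. With the experiment as a block, a fit that compares arrays of the same experiment, its adjusted p was 0.0104. The class median was -3.80, and that of transport kinesins -0.02. Every call in the 3 comparisons (13, 9 and 9) had the same direction in both experiments. The calls were made from these same arrays, so this count is not a separate test.

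All 8 mitotic probe sets passed the filter, but 5 of them (Kif11, both of Kif20a, Kif4 and Kifc1) reached a signal of 50 only on the 4 arrays without TSA. The second Kif20a set and the only Kifc1 set were marked f by the maker, a kind that can hybridise with related genes. The only Kif22 set was marked r, for broken probe selection rules. Leaving out 1 array left the calls of Kif11 and both Kif20a probe sets in place in all 8 such fits of each of the 3 comparisons. With TSA, Kif22 lost its call without untreated 2 (adjusted p = 0.0837), Kif4 without untreated 2 or TSA 1 (up to 0.103), Kif2c without untreated 1, untreated 2 or TSA 1 (up to 0.141), Kifc1 without either untreated or either TSA array (up to 0.118), and Kif23 without any one of the 8 (up to 0.267). With AzaC/TSA against untreated, Kif22 and Kif2c (both up to 0.0604) and Kif4 (0.098) lost theirs without untreated 2, Kifc1 without any untreated or AzaC/TSA array (up to 0.134), and Kif23 without any array other than those of TSA (up to 0.282). Against AzaC, Kif4 lost its call without AzaC 1, AzaC 2 or AzaC/TSA 1 (up to 0.0778) and Kifc1 without AzaC 2 (0.0708).

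Other settings ended some calls of mitotic kinesins. Without the filter on dim probe sets Kif22 lost its call in each of the 3 comparisons (adjusted p from 0.0565 to 0.0681), Kifc1 in both against untreated (0.0519 and 0.0549), Kif23 in both against untreated (0.182 and 0.185) and Kif2c with TSA (0.0722). With only the compared groups fitted, Kif2c (0.0582) and Kif23 (0.105) lost theirs with TSA, Kif23 (0.0893) and Kifc1 (0.0578) with AzaC/TSA against untreated, and Kif4 (0.0617) and Kifc1 (0.0598) against AzaC. Without the intensity trend Kif23 lost both of its calls (0.0801 and 0.0706).

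No tested kinesin of transport passed in any of the 6 contrasts, with 1 exception when the experiment was a block (Kifap3). Kif5b, a heavy chain of conventional kinesin, read 484 and 417 untreated, 409 and 359 with AzaC, 447 and 319 with TSA, and 537 and 453 with AzaC/TSA. Its log2 change with TSA was -0.25, with a 95% interval from -0.87 to 0.37 (limma adjusted p = 0.667), and the groups overlapped. Kif3c, a subunit of a heterotrimeric kinesin of neurons, read 188 and 157 untreated, 229 and 158 with AzaC, 192 and 115 with TSA, and 208 and 134 with AzaC/TSA (-0.21 with TSA, interval -1.09 to 0.68). Kif1c, a motor of vesicles in many cell types, read 396 and 238 untreated, 285 and 168 with AzaC, 171 and 143 with TSA, and 207 and 225 with AzaC/TSA. Its change of -0.97 with TSA (SE 0.37) was the lowest of the class and did not pass (adjusted p = 0.182).

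Kifap3, the adaptor that joins the kinesin-2 motors Kif3a and Kif3b to cargo and cilia, read 166 and 148 untreated, 151 and 209 with AzaC, 324 and 335 with TSA, and 268 and 220.0 with AzaC/TSA. Each array with TSA was higher than each without. The change with TSA was 2.1-fold higher (1.07, SE 0.30) with a limma adjusted p = 0.0798, and 0.0401 with the experiment as a block. With AzaC/TSA it was 0.63 (SE 0.30, adjusted p = 0.317). Its partner Kif3a, chosen after its values were seen because its arrays also stood apart, read 71 and 103 untreated, 73.6 and 58.5 with AzaC, 113 and 170 with TSA, and 121 and 113 with AzaC/TSA (0.70 with TSA, SE 0.39, adjusted p = 0.351). A further Kif3a probe set read 35.3 or less on every array and a further Kifap3 set 15.9 or less, so neither was tested. Kif3b, the other motor of that pair, changed by -0.16 with TSA (interval -1.58 to 1.27), with 89.8 and 24.6 in untreated cells.

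The other tested transport probe sets, for Kif1a, Kif1b (2), Kif5a and Kifc3, had log2 changes from -0.25 upward with TSA and did not pass. On 1 set of Kif1b both untreated arrays lay under the floor (13.8 and 11.2), and its change was at least 1.26 (adjusted p = 0.373). The widest 95% half-width of the class was 1.65, so smaller changes of its dimmest members were not detectable. Untested were Kif5c, a neuronal conventional kinesin (25.6 or less on every array), Kif16b, a motor of endosomes (20.3 to 55.7), the minus-end motor Kifc2 on both probe sets (22.2 or less), and 1 of 2 sets of Kif5a, Kif3a and Kifap3. The lowest change of a transport kinesin with TSA (-0.97) lay above the highest of a mitotic kinesin (-2.19), and this separation held against untreated cells and against AzaC for AzaC/TSA (-0.51 above -2.43, and -0.29 above -2.17). The floor of 20 limits this comparison. In untreated cells only Kif5b, Kif1c, Kif3c and Kifap3 were bright enough to fall by 2.19, and these changed by -0.97 to 1.07 with TSA. The other tested transport sets had untreated log2 means of 6.42 or less, too close to the floor for such a fall.

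Per array, the median of the mitotic kinesins minus the median of the transport kinesins, each relative to the untreated mean in log2, was -0.31 and 0.31 in untreated cells and -0.28 and -0.20 with AzaC. It was -3.41 and -2.92 with TSA and -4.11 and -3.94 with AzaC/TSA. The 4 arrays with TSA were thus at -2.92 or lower and the 4 others between -0.31 and 0.31. Kif2a, which shortens microtubules in dividing and resting cells alike and so belongs to neither set, read 136 and 186 untreated, 157 and 144 with AzaC, 199.8 and 148 with TSA, and 177 and 145 with AzaC/TSA. Its change with TSA was 0.11 (interval -0.63 to 0.86). The 2 probe sets of Kif9, a kinesin of motile cilia, reached at most 29.2 and 60 and were not tested.

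**Figure D2:**
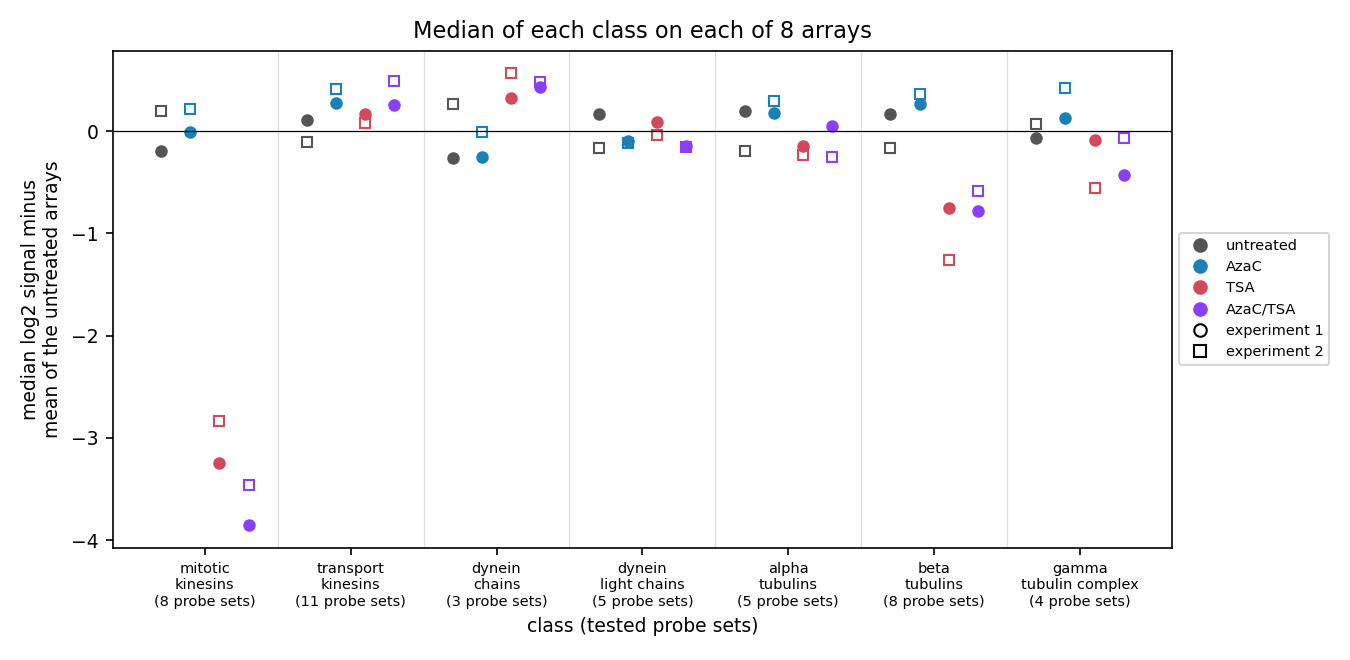
Median over the tested probe sets of each class on each of the 8 arrays, as log2 signal minus the mean of the untreated arrays, coloured by group, with circles for experiment 1 and squares for experiment 2. Mitotic kinesins lie between -3.85 and -2.84 on the arrays with TSA, beta tubulins between -1.26 and -0.59, and transport kinesins between 0.08 and 0.49.

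Alpha tubulins gave no call. Tuba1a, the main alpha tubulin of young neurons and their progenitors, read 21824 and 16604 untreated, 21510 and 20688 with AzaC, 18265 and 16232 with TSA, and 19771 and 18305 with AzaC/TSA on 1 of its 2 probe sets. These groups overlapped, and the change with TSA was -0.14 (interval -0.68 to 0.39). On the other, of the kind marked f by the maker, which can hybridise with related genes, it read 8670 and 9216 untreated, 8744 and 11010 with AzaC, 6515 and 5360 with TSA, and 7384 and 6324 with AzaC/TSA (-0.60 with TSA, SE 0.24, adjusted p = 0.199). Tuba1c, an alpha tubulin of many dividing tissues, read 12560 and 12822 untreated, 13060 and 15343 with AzaC, 9089 and 7628 with TSA, and 10323 and 9565 with AzaC/TSA, also on an f set (-0.61 with TSA, SE 0.23, adjusted p = 0.171). On both of these sets the arrays with TSA were lower than all others, by amounts that did not pass the test. Tuba8 (109 to 184) changed by -0.13 and Tuba4a (31.9 to 89.2) by 0.89 with TSA, and neither passed. A further Tuba4a set read 17.9 or less and was not tested.

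Among beta tubulins 3 of 8 probe sets fell with TSA, where 2.93% of all tested probe sets did. Tubb5, the beta tubulin of most dividing cells (chr17:35833920-35838301), was measured by 2 probe sets. The f set read 5457 and 6643 untreated, 5759 and 7740 with AzaC, 2620 and 2239 with TSA, and 3381 and 2492 with AzaC/TSA. The r set, a mark for broken probe selection rules, read 6714 and 7715 untreated, 7997 and 9806 with AzaC, 2334 and 2123 with TSA, and 2951 and 2526 with AzaC/TSA. On both, every array with TSA was lower than every array without it. The falls with TSA were 2.49-fold (-1.31, SE 0.26, limma adjusted p = 0.0274) and 3.23-fold (-1.69, SE 0.23, adjusted p = 0.00638). The r set also fell with AzaC/TSA against untreated (2.64-fold, adjusted p = 0.0156) and against AzaC (3.24-fold, adjusted p = 0.00697). The f set did so against AzaC (2.3-fold, adjusted p = 0.0499). Against untreated its change of -1.05 had an adjusted p = 0.0764, or 0.0231 with the experiment as a block.

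Tubb6, a beta tubulin of many tissues outside neurons, read 1962 and 2426 untreated, 1993 and 2816 with AzaC, 989 and 825 with TSA, and 1313 and 1539 with AzaC/TSA. Its only probe set was an f set, so all beta tubulin sets that fell with TSA carried an f or r mark. The arrays with TSA alone were the lowest and those with AzaC/TSA lay between them and the rest. The fall with TSA was 2.41-fold (-1.27, SE 0.26, limma adjusted p = 0.0297). With AzaC/TSA the change was -0.62 (SE 0.26, adjusted p = 0.263).

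Without either untreated or either TSA array, Tubb6 (up to 0.199) and the Tubb5 f set (up to 0.184) lost their calls with TSA, and the Tubb5 r set did so without untreated 2 or TSA 2 (up to 0.069). For AzaC/TSA the r set lost its call against untreated without either untreated or either AzaC/TSA array (up to 0.145) and against AzaC without AzaC 2 or AzaC/TSA 2 (up to 0.0617), and the f set lost its call against AzaC without any one of the 8 arrays (up to 0.221). Dropping the filter, dropping the trend or fitting only the compared groups also ended the calls with TSA of Tubb6 (0.06 to 0.0919) and the Tubb5 f set (0.057 to 0.104), and that of the r set with AzaC/TSA against untreated (0.0602 to 0.0844). Against AzaC the r set lost its call with only the compared groups (0.0617), and the f set with these 3 settings, median centring or a floor of 5 or 40 (0.0539 to 0.153).

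Tubb2a, a beta tubulin abundant in brain, read 2714 and 3158 untreated, 2391 and 2232 with AzaC, 2614 and 2114 with TSA, and 3135 and 1844 with AzaC/TSA on an f set (-0.32 with TSA, interval -0.97 to 0.33). Its r set read 108 and 26.4 untreated, 108 and 97.3 with AzaC, 42.5 and 24.7 with TSA, and 16.8 and 22.6 with AzaC/TSA. The 2 sets thus differed in their pattern, and the untreated arrays of the r set spanned most of its range. Its change against AzaC was at least -2.27 (SE 0.68) with a limma adjusted p = 0.125, or 0.0472 with the block.

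Tubb4a, a beta tubulin of neurons and oligodendrocytes, read 94 and 25.2 untreated, 98.6 and 36.2 with AzaC, 274 and 31.7 with TSA, and 326 and 157 with AzaC/TSA. Experiment 1 was higher than experiment 2 in every group. The change with AzaC/TSA was 2.21 against untreated (SE 1.02, limma adjusted p = 0.307, or 0.0237 with the block) and 1.92 against AzaC (adjusted p = 0.369, or 0.0415 with the block). Tubb4b read 75.9 and 42 untreated, 73 and 91.5 with AzaC, 14.4 and 16.1 with TSA, and 30.2 and 76.9 with AzaC/TSA (at least -1.50 with TSA, adjusted p = 0.191). The set of the pseudogene Tubb2a-ps2 lay between 14.6 and 55.7.

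Gamma tubulin, which seeds microtubules, and its ring complex gave no call. Tubg1 read 583 and 447 untreated, 519 and 810 with AzaC, 514 and 372 with TSA, and 411 and 475 with AzaC/TSA, so its groups overlapped. Tubgcp3, a ring subunit, read 167 and 234 untreated, 159 and 225 with AzaC, 104 and 126 with TSA, and 119 and 122 with AzaC/TSA, lower on every array with TSA (-0.79 with TSA, SE 0.34, limma adjusted p = 0.232). Tubg2 read 51.4 and 91.2 untreated, 148 and 191 with AzaC, 61.7 and 156 with TSA, and 88.9 and 108 with AzaC/TSA. Tubgcp4 changed by -0.58 with TSA (interval -1.58 to 0.42), and a second set of it (26.6 or less) was not tested.

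Dync1h1, the heavy chain that is the motor of cytoplasmic dynein (chr12:110601395-110666944), was the only member that rose with TSA. It read 966 and 886 untreated, 777 and 871 with AzaC, 1766 and 1811 with TSA, and 1545 and 1662 with AzaC/TSA. Every array with TSA was higher than every array without it, and replicates lay close together. The rise with TSA was 1.93-fold (0.95, SE 0.22, limma adjusted p = 0.0403). With AzaC/TSA it was 0.79 against untreated (adjusted p = 0.0971, or 0.0306 with the block) and 0.96 against AzaC (adjusted p = 0.0544, or 0.0145 with the block). The call was lost without any one of the 8 arrays (up to 0.218) and also with arrays centred on their median (0.0653), without the intensity trend of the variance (0.11) and with only the compared groups fitted (0.0817).

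The intermediate chains, which hold dynein to its cargo adaptors, did not pass. Dync1i2 read 257 and 369.9 untreated, 290.4 and 389 with AzaC, 385 and 348 with TSA, and 406 and 429 with AzaC/TSA (0.25 with TSA, interval -0.41 to 0.90). Dync1i1, the form of neurons, read 91.2 and 133 untreated, 76.4 and 109 with AzaC, 119 and 163 with TSA, and 149 and 123 with AzaC/TSA (0.34 with TSA, interval -0.52 to 1.20).

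Light chains differed among themselves and between probe sets. Dynlrb1, a roadblock light chain (chr2:155236533-155250277), read 1211 and 986 untreated, 803 and 1009.7 with AzaC, 506 and 500.1 with TSA, and 907 and 979 with AzaC/TSA on a set marked i. The arrays with TSA alone were the lowest. The change with TSA was 2.17-fold lower (-1.12, SE 0.24, limma adjusted p = 0.0345), and it was lost without either untreated array, either TSA array or AzaC/TSA 2 (up to 0.158), and without the filter, without the trend or with only the compared groups (0.0585 to 0.0918). Its r set read 355 and 207 untreated, 295 and 281 with AzaC, 288 and 265 with TSA, and 245 and 281 with AzaC/TSA, a change of 0.03 (interval -0.69 to 0.74), so the 2 sets disagreed.

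Dynll1, a light chain that also binds many proteins outside dynein, read 5632 and 6926 untreated, 5832 and 5333 with AzaC, 3227 and 3880.3 with TSA, and 3518 and 3446 with AzaC/TSA, on an f set. All 4 arrays with TSA were lower than the rest. The changes of -0.82 with TSA and -0.84 with AzaC/TSA (SE 0.23 each) had limma adjusted p = 0.0774 and 0.0914, or 0.02 and 0.0235 with the block. Its paralog Dynll2 read 723 and 98.5 in the 2 untreated arrays on one set, a spread wider than its change with TSA (1.03, adjusted p = 0.539), and its other set changed by 0.28 with TSA (interval -0.44 to 1.01). Dynlt1b and Dynlt3, of the Tctex family, read at most 20.5 and 42.4 and were not tested.

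**Figure D3:**
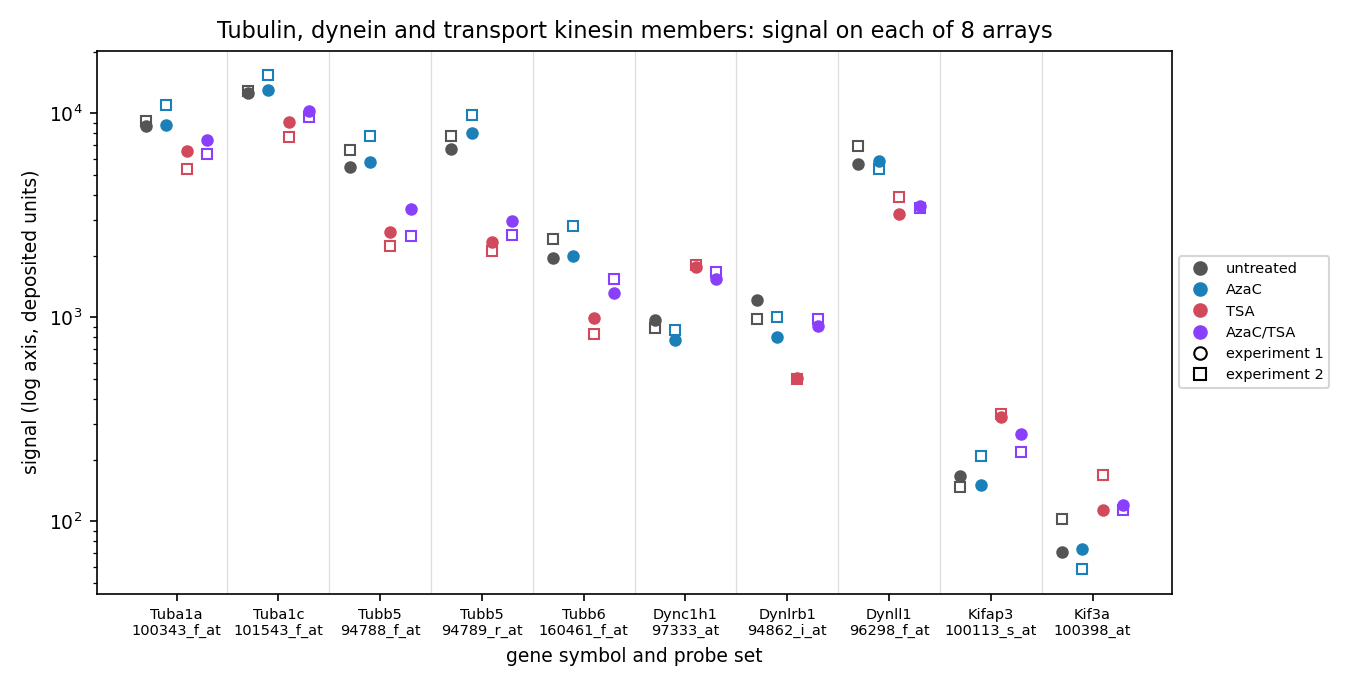
Signal on each of the 8 arrays (log axis, deposited units) for 10 probe sets of tubulins, dynein and transport kinesins, coloured by group, with circles for experiment 1 and squares for experiment 2. Both Tubb5 sets and Tubb6 lie lower with TSA, Dync1h1 rises from at most 966 to at least 1545, and the Dynlrb1 set is low with TSA alone.

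Counting arrays and not p-values, 15 of 45 members (33.3%) had all 4 signals with TSA below all 4 without, against 12.6% of all tested probe sets. These were the 8 mitotic sets, both Tubb5 sets, Tubb6, the Tuba1a f set, Tuba1c, Dynll1 and Tubgcp3. Another 3 (6.67%) lay wholly higher, Dync1h1, Kifap3 and Kif3a, against 11% of all. With the experiment as a block, 2 members rose and 13 fell with TSA, where 5.59% of all tested probe sets rose and 6.55% fell. For AzaC/TSA the block gave 2 rises and 11 falls against untreated (4.37% and 4.95% of all) and 2 and 11 against AzaC (4.49% and 4.83% of all).

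AzaC alone moved none of these genes past the threshold. Of 45 members 0 passed limma, as did 0% of all tested probe sets in either direction. At an unadjusted p under 0.05 there was 1 member, Tubg2 (1.30, SE 0.51, limma adjusted p = 1), among 175 of all tested probe sets, and with the block 0 members passed as well. The mitotic kinesins had a median of 0.01 and ranged from -0.31 (Kif4) to 0.42 (Kifc1). The interval for Kif11 was -0.98 to 0.70 and that for the second Kif20a set -0.68 to 1.01, so smaller changes were not detectable with these arrays. Transport kinesins had a median of 0.18 and beta tubulins of 0.22.

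AzaC added to TSA was tested against TSA alone. Again limma called 0 of 45 members and 0% of all tested probe sets, higher or lower. At an unadjusted p under 0.05 there were 3 members: the Dynlrb1 i set at 0.90, Tubb6 at 0.65 and Kif2c at -1.27, the last from 40.8 and 76.1 with TSA to 23.7 and 22.4 with AzaC/TSA. Kif11 and the first Kif20a set lay under the floor on all arrays of both groups, which leaves no measurable difference between them. The AzaC by TSA interaction, which asks whether the change with TSA depends on AzaC, likewise had 0 calls among members and 0% among all. The 2 members at an unadjusted p under 0.05 were the Dynlrb1 i set (1.18, SE 0.34) and Kif2c (-1.50, SE 0.57), both with a limma adjusted p = 1.00. For Kif22 the interaction was -0.65 (interval -2.00 to 0.70), and for the Tubb5 f set 0.11 (interval -0.73 to 0.96).

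**Figure D4:**
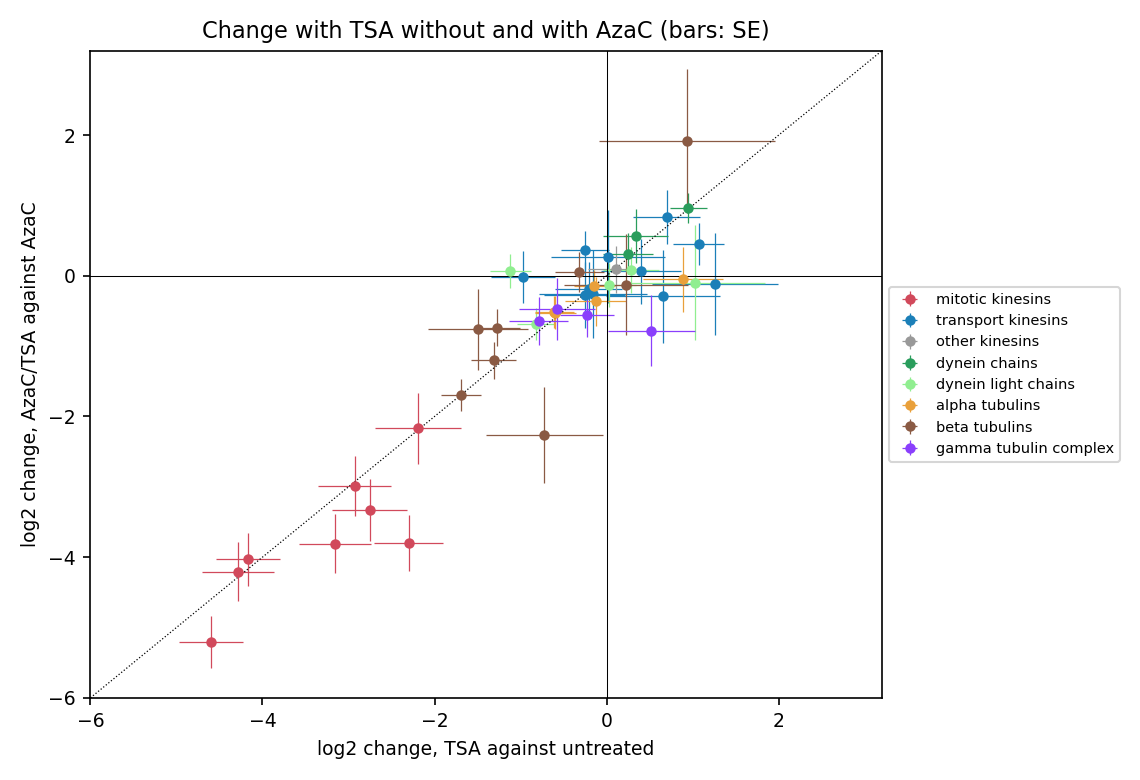
Log2 change with TSA in the absence of AzaC (x axis) against that in its presence (y axis) for the 45 tested members, coloured by class, with bars of 1 SE; the dotted line marks equal change. Mitotic kinesins lie at the lower left, from -4.60 to -2.19 and from -5.21 to -2.17, and transport kinesins around 0.

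The other genes of the spindle and of transport were counted from lists. Of 25 tested probe sets of spindle partners, for 20 genes, 16 fell with TSA and 0 rose (median -2.69), and 15 fell in each comparison of AzaC/TSA with untreated or AzaC. The falls with TSA included Prc1 (-3.92), which crosslinks the midzone microtubules on which Kif4 and Kif20a act, Racgap1 (-3.50, at least), the partner of Kif23 in centralspindlin, and Aurkb (-4.19, at least), the kinase that Kif20a carries. Racgap1 did not pass with AzaC/TSA against untreated or AzaC (limma adjusted p = 0.104 and 0.0966). Ckap5 (-0.54), Numa1 (-0.64) and Bub3 (-0.77) did not pass. Of 42 probe sets of partners of transport and the cytoskeleton, for 31 genes, 2 rose and 1 fell with TSA (median 0.15), where 2.1% and 2.93% of all tested probe sets did. With the experiment as a block 4 rose and 1 fell. In AzaC/TSA against untreated and against AzaC 0 of the 42 rose and 1 fell, or 4 and 3, and 2 and 3, with the block. Mapk8ip3, a scaffold between kinesin-1 and its cargo, rose (1.53, adjusted p = 0.0399), as did 1 of 2 sets of the microtubule tip protein Mapre3 (2.23, adjusted p = 0.0369, the other set 0.94 and not passing). Neither passed with AzaC/TSA: adjusted p was 0.159 and 0.313 for Mapk8ip3 and 0.0673 and 0.0577 for that Mapre3 set, against untreated and AzaC. Stmn1, which destabilises microtubules, fell (-1.85, adjusted p = 0.0195) and did so again with AzaC/TSA against untreated and AzaC. The kinesin light chain Klc1 (0.64 to 1.10 on 3 sets) and the dynactin subunit Dctn1 (0.68) did not pass.

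Markers of cycling cells moved with the mitotic kinesins: 8 of 10 tested probe sets, for 9 genes, fell with TSA (median -3.82). Of all tested probe sets 2.93% fell. Pcna and 1 of 2 sets of Mcm5 did not pass, and Mki67 and Top2a each had signal under the floor with TSA. The summed signal of the cycling markers per array was 8671 to 12786 in untreated cells and 9509 to 12358 with AzaC, but 1041 to 1284 with TSA and 926 to 1795 with AzaC/TSA. Of 7 tested sets of neuronal markers 2 rose with TSA, where 2.1% of all tested probe sets did. These were Snap25 (at least 4.30, limma adjusted p = 0.00274) and Syp (at least 2.38, adjusted p = 0.0219). Both had their untreated arrays under the floor, and Snap25 reached the filter only on arrays with TSA. Syp did not pass with AzaC/TSA against AzaC (limma adjusted p = 0.262). Map2 (-0.27) and Dcx (0.39) did not pass with TSA, and Nefl and Syt1 were not tested. The summed signal of the neuronal markers, to which Snap25 contributes the highest mean, was 348 to 352 untreated, 475 to 497 with AzaC, 794 to 1427 with TSA and 984 to 1211 with AzaC/TSA. Of 9 sets of neural stem and progenitor cells only Fabp7 fell with TSA (-2.63) and 0 rose. With the block there was 1 rise and 2 falls, where 5.59% and 6.55% of all tested probe sets rose and fell. The 9 sets had a median of 0.10, with 5 of them above 0. Their sum, to which Fabp7 contributes most, was 15978 to 17663 untreated, 15079 to 17352 with AzaC, 6235 to 8374 with TSA and 9835 to 14029 with AzaC/TSA. In RNA from whole cultures, fewer cells of a type and less RNA per cell cannot be told apart, and the part of these shifts in the changes of motors and tubulins was not tested.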

How the data were processed

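RNA of 8 arrays was compared, 2 for each of 4 groups. The deposited values are intensities on a linear scale, 1 per probe set and array, which the authors had scaled to the same 2%-trimmed mean, as the values show; the software is not given in the sources used here. Controls (66 probe sets) were left out, values under 20 (10% of the trimmed mean) were raised to that floor, and log2 was taken. Of 12422 probe sets, 7994 with a signal of 50 or more on at least 2 arrays entered the limma model (version 3.58.1, R 4.3.3, lmFit and eBayes with an intensity trend, 1 mean per group, 4 residual degrees of freedom, 6 contrasts). The fit was tested on simulated data, which held no effect of the experiment and changes only in brighter probe sets. That test does not cover dim members. The titles number the experiments, and deviations of same-numbered arrays from their group means correlated with r from 0.203 to 0.411 over 6 pairs of groups. A block for the experiment was tried as an alternative. Each gene kept all its probe sets.

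Members, classes and lists were chosen with earlier results of these data known. Named array by array are members that passed in any contrast and up to 4 more of highest mean signal per class. Marker lists of astrocytes, the oligodendrocyte lineage, microglia, endothelial cells, fibroblasts and ciliated cells were also counted: with TSA 0 rose and 1 fell of 3 (S100b, -1.63), 0 of 5 passed, 1 rose of 2 (Cd68, 2.69), and 0 of 1, 0 of 4 and 0 of 1 passed. Over all tested probe sets 2.1% rose and 2.93% fell. In the lists of S100b and Cd68, Gfap (0.70), Aldoc (-0.96) and Csf1r (-0.49) did not pass. Of the 58 members, 23 had probe set names with a letter (f, r, s, g or i) by which the maker marked sets that can share probes with related sequences or that broke its selection rules. Promoters came from RefSeq (GRCm38.p6). Protein sequences were not used here.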

Additional observations from a re-analysis of the deposited data

How the results depend on the processing

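Each alternative differed from the reported setting in 1 choice. Scaling used quantile normalization or median centring. Low values had a floor of 5 or 40, or an offset of 20. The filter was dropped or raised to 100. The variance was robust or had no trend, the fit held only the compared groups or a replicate block, genes had 1 probe set each, the family kind (names with f, r, s, g or i) was left out, or 1 array was left out. No call among the members was reversed in any of them. The 13 calls with TSA became 8 without the filter (2 of them the dim sets of Kif9, 0.47, and Kif5c, 0.32), 8 without the trend, 7 when other groups were left out and 6 of 26 probe sets with the family kind left out. The 9 with AzaC/TSA against untreated became 5 with the family kind left out, and the 9 against AzaC became 5 when other groups were left out and 4 with the family kind left out. Leaving out 1 array gave 3 to 11 calls with TSA (lowest without untreated 2), 3 to 9 with AzaC/TSA against untreated (lowest without untreated 2) and 5 to 9 against AzaC (lowest without AzaC 2); such a fit leaves a group with 1 array, assumed to vary like the others, and carries the difference between experiments. Without the filter AzaC/TSA against TSA had 2 calls, Kif5c (-0.32) and Kifc2 (0.14), both dim sets with 6 arrays under the floor. The replicate block gave 15, 13 and 13 calls in the 3 comparisons with TSA, included every call made without it, and gave 0 in the other contrasts; it changed no other call of a member than those given with it above. Among the lists it also gave 17 in place of 16 falls of spindle partners and 9 in place of 8 of cycling markers with TSA. In that fit 6.55% of all tested probe sets fell with TSA. The median of mitotic minus that of transport kinesins was -3.06 with TSA (-3.98 to -2.52 over the fits without 1 array). It was -4.09 with AzaC/TSA against untreated, -3.21 with a floor of 40, -3.48 with the offset and -4.34 to -3.50 over the fits without 1 array. Against AzaC it was -3.78, -3.07 with a floor of 40 and -4.03 to -3.52 over the fits without 1 array. With median centring the median change of all genes was -0.126 for AzaC (0.03 as reported), 0.142 for the interaction (-0.03) and 0.0548 for AzaC/TSA against AzaC (-0.058); the first 2 had 0 member calls either way. Depth is not defined for arrays; 13 members too dim to test and the 2 arrays per group limit what could be detected.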
